A study of Homo sapiens with 33 samples.

Results

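HepG2 is a human cell line grown from a liver tumour and widely used as a stand-in for hepatocytes, the main cells of the liver. The profile described here is the mRNA of unsorted (bulk) HepG2 cells, 3 libraries of the series' 33 samples, chosen as the libraries that the labels name bulk. The other samples are 12 RNA libraries from 6 sorted cell-cycle fractions (G1, S1 to S4 and G2, replicates 2 and 3), used here only for gene lengths and beside low liver genes, and 18 Repli-seq samples, which measure when DNA is replicated and were not used. The bulk cells carry no treatment and no genetic change in the labels. Per the labels' protocols, RNA came from whole bulk cells with a column kit and libraries were made with a stranded mRNA kit, although the labels' molecule field says nuclear RNA. The labels give no culture, passage or date, so the spread between the libraries (SD, n = 3) may be technical. Every level below is in TPM, a read count divided by gene length and by the library's total, so that it can be compared between genes.

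Hepatocytes make most of the proteins of blood plasma, among them albumin, apolipoproteins, clotting factors and complement, and they clear ammonia, drugs and bile acids. The fetal liver makes alpha-fetoprotein, AFP, and this gene is switched off after birth and often on again in liver tumours. A dividing tumour line also uses the genes of DNA replication and mitosis, which most hepatocytes of an adult liver leave idle. In bulk cells a low level cannot be told apart between few cells with the transcript and little transcript in every cell.

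The libraries held 24405614, 22339403 and 22325223 reads, recovered from the steps of the TPM values, and 1 read over a gene of 1000 bases was worth 0.175 ± 0.00876 TPM. Their log2(TPM + 1) values correlated with Pearson's r of 0.982 to 0.984 over the 14141 genes with a mean of at least 1 TPM, across genes, which are not independent replicates. No pair of libraries was a copy of another, since their counts differed by 2.84 to 6.01 times sampling noise (chi-square per degree of freedom). Protein-coding genes of the nucleus held 77.1% ± 0.434 of TPM and mitochondrial genes 17.7% ± 0.469. A mean of at least 1 TPM, called detected below, was reached by 10735 of 19183 protein-coding genes, or 56.0%, with a median of 23.98 TPM among them. At least 100 TPM was reached by 7.61%, a mean under 0.1 TPM, called near zero, was found for 35.5%, and 26.8% were listed at 0 in all libraries. These shares are the background for every list below. Where an average alone is given it is over the 3 libraries, and the SD of log2(TPM + 1) was 0.064 at the median of the 7805 protein-coding genes with a mean of at least 10 TPM.

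By TPM, the most abundant transcripts of the nuclear genome were those of plasma proteins, the ribosome and iron storage. ALB, albumin, the main protein of blood plasma, led with 14831, 14868 and 14791 TPM in bulk replicates 1, 2 and 3, in which order all triplets of values are given. AFP followed with 12819, 13054 and 12534 TPM, and the ranges of the 2 genes did not overlap. APOA2, an apolipoprotein of high-density lipoprotein, had 10296, 10548 and 10541 TPM, and AHSG, the plasma glycoprotein fetuin-A, had 8048, 7735 and 8231 TPM. The ribosomal protein gene RPS12 had 7637, 7675 and 7592 TPM and FTL, the light chain of ferritin, had 6106, 5981 and 6339 TPM. All 3 libraries gave the same order for these genes.

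Next came APOH with 5962, 5900.2 and 5785 TPM, a plasma protein that binds phospholipids, and EEF1A1 with 5774, 5856 and 5786 TPM, the factor that brings aminoacyl-tRNA to the ribosome. Their ranges overlapped. A2M, a broad protease inhibitor of plasma, had 5559, 5828 and 5696 TPM, and GPC3, a cell-surface proteoglycan of fetal liver and liver tumours, had 5193, 5273 and 5177 TPM. APOA1, the main protein of high-density lipoprotein, had 4481, 3882 and 4431 TPM, with replicate 2 the lowest. ALB, APOA1 and EEF1A1, which were given as markers for these samples, were all among the 13 most abundant protein-coding genes of the nucleus. EEF1A1 belongs to the translation machinery and is in no liver list. Before division by gene length it stood above ALB in every library. EEF1A1 had 353193, 326519 and 325704 recovered reads and ALB had 306066, 279694 and 280874. Their gene models are 10063 and 3395 bases long, so the order given here is one of TPM and not of reads.

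The first 25 also held HSP90AB1 (4976 TPM on average), a chaperone, GAPDH (4307), an enzyme of glycolysis, and PEBP1 (3291), a kinase inhibitor protein. EEF2, which moves the ribosome along the mRNA, had 3526, 2946 and 3511 TPM, again lowest in replicate 2. ITIH2 (3256) and AMBP (2814) encode plasma protease inhibitors, FN1 (2623) fibronectin, and TMSB10 (2208) an actin-binding thymosin. RPLP0 (3371), RPL13A (2845), RPL3 (2474), RPL11 (2442) and RPL10A (2362) encode ribosomal proteins. Of the 25 genes, 10 were in a liver list, 7 were ribosomal protein genes and 8 were neither. For 10 of the 24 neighbouring pairs in this order the ranges overlapped, so those positions were not separated by the spread between libraries. The first 10 genes held 10.7% ± 0.0920 of the TPM of protein-coding genes, the first 25 held 16.8% ± 0.0999 and the first 100 held 29.3% ± 0.161.

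**Figure D1:**
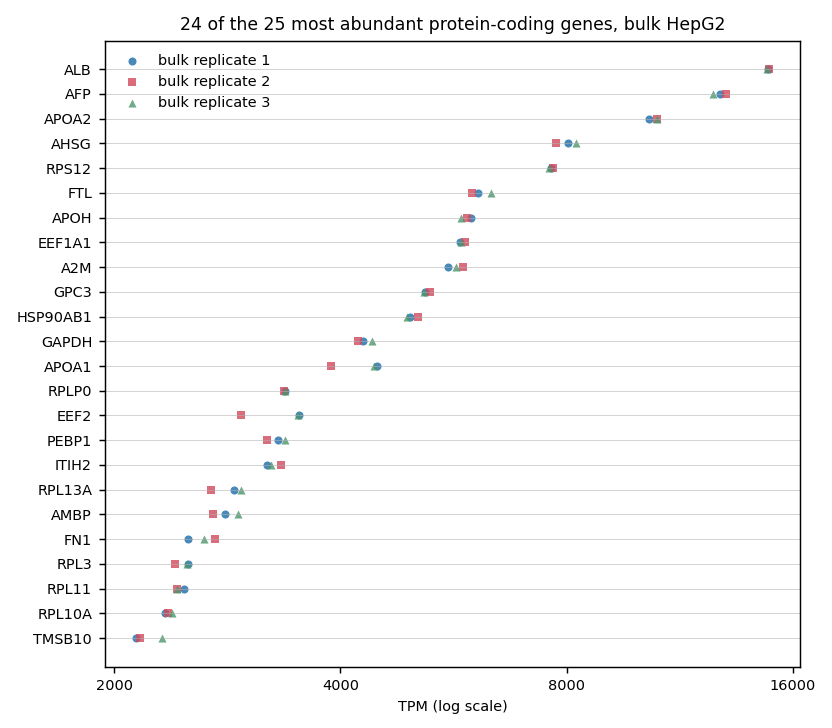
TPM (log scale) of 24 of the 25 most abundant protein-coding genes of the nuclear genome, ordered by mean, with a symbol for each of the 3 bulk libraries. ALB at 14791 to 14868 TPM and AFP at 12534 to 13054 TPM stand clear of the rest, while APOA1 and EEF2 are lower in replicate 2 than in the other libraries.

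Among other nuclear genes, the most abundant were pseudogene copies of other genes. MTATP6P1, a copy of a stretch of mitochondrial DNA on chromosome 1, had 2349.8, 2475 and 2331 TPM. Its gene model and that of the mitochondrial gene MT-ATP6 are both 681 bases long. Whether its reads came from mitochondrial RNA was not tested. RPS28P7 (1731 TPM on average), RPS27P3 (1411), RPS7P1 (1405) and RPS2P5 (1112) are pseudogenes of ribosomal proteins. Pseudogenes held 2.80% ± 0.0327 of TPM but 0.511% ± 0.00470 of reads, a difference that comes from the division by gene length. The most abundant mRNAs of the mitochondrial genome were MT-CO3 with 24116, 25439 and 25017 TPM, MT-CO1 with 23893, 24988 and 24797 TPM, MT-ND4 with 18409, 19477 and 18804 TPM and MT-CO2 with 14957, 16013 and 15861 TPM, which encode subunits of the respiratory chain. Each of these exceeded ALB, as did MT-RNR2, the large ribosomal RNA of mitochondria, with 19333, 20385 and 19187 TPM.

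The albumin family of plasma carriers sits on chromosome 4, and its members spanned the range of the data. ALB lies at 73404287 to 73421482 (GRCh38.p14, plus strand) and AFP at 73436221 to 73456174. AFM, which encodes the vitamin E-binding afamin, lies at 73481745 to 73504001 and had 0.754, 0.248 and 0.574 TPM, from 10, 3 and 7 reads. GC, the vitamin D-binding protein, lies farther off at 71741693 to 71805520 and had 0, 0.0861 and 0 TPM, a single read. The log2 ratio of AFP over ALB was -0.21, -0.19 and -0.24, so the fetal gene stood close to the adult one in every library. The 150 bases before the start of each gene, from the RefSeq table (GRCh38.p14, plus strand), are shown because neighbouring copies of one family had such unlike levels.
ALB: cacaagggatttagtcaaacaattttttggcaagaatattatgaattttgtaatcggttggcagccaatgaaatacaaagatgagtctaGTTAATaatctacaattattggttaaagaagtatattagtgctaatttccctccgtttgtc
AFP: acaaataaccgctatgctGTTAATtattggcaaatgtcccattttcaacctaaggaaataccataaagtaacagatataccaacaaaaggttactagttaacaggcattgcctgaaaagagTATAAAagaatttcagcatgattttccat
AFM: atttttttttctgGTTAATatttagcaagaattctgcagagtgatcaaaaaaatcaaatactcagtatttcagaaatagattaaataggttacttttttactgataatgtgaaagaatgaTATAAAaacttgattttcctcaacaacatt
Capitals mark TATAAA, the letters of a TATA box, and GTTAAT, a stretch known from liver promoters. Both were searched on both strands, and they do not overlap each other. The windows are chr4:73404137-73404286 for ALB, chr4:73436071-73436220 for AFP and chr4:73481595-73481744 for AFM. GTTAAT began 61 bases before the start of ALB, 132 bases before that of AFP and 137 bases before that of AFM. TATAAA began 29 bases before the start of AFP and 30 bases before that of AFM. Over windows of the same length at 35116 promoters, 3.52% held GTTAAT and 6.71% held TATAAA. AFP at 12802 TPM and AFM at 0.525 TPM on average thus both held these letters, which are a description of the sequence alone.

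Plasma carriers and protease inhibitors were the most abundant liver list, with 26 of 29 members detected, 18 at 100 TPM or more and a median level of 182 TPM. They held 5.47% ± 0.0105 of TPM. Beside the genes above, RBP4, which carries retinol, had 1286, 1172 and 1281 TPM, ORM1, an acid glycoprotein, 1073, 1060.4 and 1059 TPM and TF, transferrin, 716 TPM on average. TTR, which carries thyroid hormone, averaged 466 TPM. SERPINA1, alpha-1-antitrypsin, had 1079, 1193 and 1177 TPM and SERPIND1, heparin cofactor II, 825, 847 and 836 TPM. SERPINA5, a neighbour of SERPINA1 on chromosome 14 that encodes an inhibitor of protein C, averaged 638 TPM. At the low end, HP, haptoglobin, had 16.2, 14.9 and 15.4 TPM and HPX, hemopexin, 3.67 TPM on average. ITIH4, whose product joins the same protein family as ITIH2, was near zero at 0, 0.0775 and 0.0767 TPM.

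Apolipoprotein levels were spread widely, with 11 of 15 detected and 4 near zero. The APOA1 cluster on chromosome 11 was detected throughout, with APOC3, an inhibitor of lipoprotein lipase, at 857, 796 and 861 TPM, APOA5 at 86.4 TPM and APOA4 at 34.6 TPM on average. APOE, a ligand of lipoprotein receptors, had 788, 578 and 781 TPM and its neighbour APOC1 averaged 275 TPM. APOC4 was listed at 0 in each library. APOB, the structural protein of very-low-density and low-density lipoprotein, had 0.0999, 0.122 and 0.0362 TPM from 9, 10 and 3 reads over 14828 bases of gene model. HepG2 cells are widely known to secrete that protein, so this value is to be read with the near-zero housekeeping genes below. APOD was also near zero (0, 0.179 and 0 TPM), and LPA was listed at 0 in each library. All 12 genes of lipoprotein assembly and clearance were detected. Of these MTTP, which loads lipid onto apolipoprotein B, had 197, 212 and 199 TPM, ANGPTL8 373, 275 and 342 TPM, LRP1, a clearance receptor, 215, 209 and 223 TPM, and SCARB1, the receptor for high-density lipoprotein, 109.6, 105 and 111 TPM.

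Coagulation genes were detected in 16 of 22 cases, 9 of them at 100 TPM or more. The genes of the fibrinogen chains lie side by side on chromosome 4. FGA had 1091, 1115 and 1094 TPM, FGG had 971, 990.2 and 949.6 TPM and FGB had 309, 312 and 308 TPM, lowest of the chains in every library. FGL1, a fibrinogen-like secreted protein, averaged 112 TPM. F2, prothrombin, had 786, 733 and 782 TPM, F5 173, 183 and 177 TPM, F10 87.1 TPM on average and F11 47.8 TPM. PROC, protein C, had 258, 229 and 257 TPM, PROS1, protein S, 121 TPM on average and CPB2 99.1 TPM. PLG, plasminogen, had 0.0737, 0.02021 and 0.02002 TPM. HRG (0.0659, 0.0723 and 0.0716 TPM) and HABP2 (0.0906, 0.0994 and 0 TPM) were near zero too, and F9 and KLKB1 were listed at 0 in each library.

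Complement was split, with 18 of 33 members detected and 14 near zero, a share of 42.4% against 35.5% of all protein-coding genes. C3, on which all complement routes meet, had 2059, 2108 and 2161 TPM. CLU, clusterin, had 334, 330.4 and 351 TPM, VTN, vitronectin, 222, 221 and 223 TPM, and the chains of C4b-binding protein, C4BPA and C4BPB, averaged 245 and 158 TPM. Of the early components MASP2 averaged 23.6 TPM, MBL2 13.1 TPM, C1S 8.25 TPM and C4A 1.74 TPM. C5, which starts the terminal route, averaged 59.1 TPM. C1R (0.0283, 0.0311 and 0 TPM), C2 (0.0230, 0 and 0 TPM) and CFB (0.124, 0.0340 and 0.0673 TPM) were near zero, and so were SERPING1 (0.0683, 0.0998 and 0.0989 TPM), C9 (0.0922, 0 and 0.150 TPM) and C7 (0, 0.0536 and 0.0531 TPM). MASP1, FCN3, CFD and CFP were each listed at 0 in all libraries. C4A and C4B are near-identical copies, so their split is uncertain.

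Of the acute phase genes 6 of 11 were detected, or 54.5%, against 56.0% of all protein-coding genes. The near-zero share was 36.4%, against 35.5%, so both shares were close to the background. The 4 near zero, CRP, SAA1, SAA2 and LBP, were listed at 0 in each library. These genes are known to be switched on in liver by inflammatory signals. LEAP2 averaged 30.7 TPM and SERPINA3 8.61 TPM. Iron genes were detected in 7 of 8 cases, with FTH1, the heavy chain of ferritin, at 1869, 1920.4 and 1902 TPM, TFRC, the transferrin receptor, at 87.6 TPM and SLC40A1, the iron exporter, at 82.7 TPM on average.

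Hepatocyte transcription factors were detected in 31 of 33 cases with none near zero and a median of 35.9 TPM. NR0B2, a repressor that answers to bile acid signals, had 421, 361 and 409 TPM, MLXIPL, a factor of the response to sugar, 205, 187 and 204 TPM, HNF4A 159, 161 and 162 TPM and CEBPA 153, 137 and 149.8 TPM. HHEX (136 TPM on average), FOXA3 (108), PROX1 (97.1) and FOXA2 (91.2) are factors of liver development, and ESRRA (59.3), NR1H4 (42.7), the bile acid receptor, TBX3 (106) and CREB3L3 (59.9) were also detected. NR1I3, a receptor that controls drug metabolism, averaged 0.393 TPM.

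**Figure D2:**
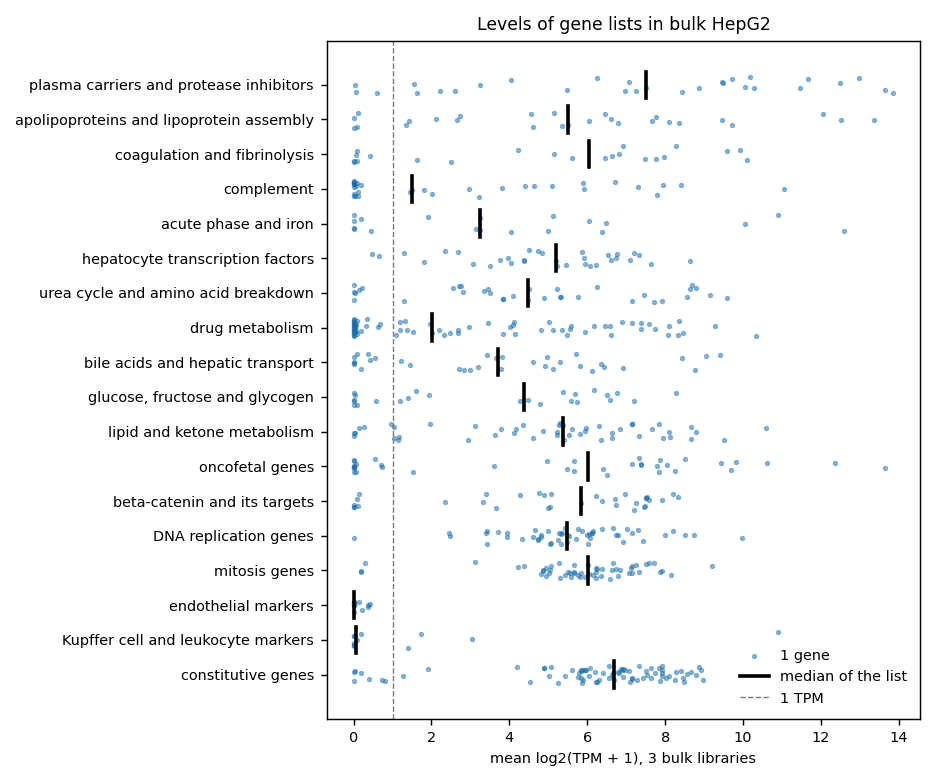
Mean log2(TPM + 1) over the 3 bulk libraries for each gene (point), with the median of each list (bar) and 1 TPM (dashed line). Drawn are 11 liver lists, lipid metabolism included, 2 tumour lists, 2 proliferation lists, 2 lists of other cell types and a list of constitutive genes. Transcription factors, replication and mitosis genes lie mostly right of the line, while complement and drug metabolism, with 42.4% and 33.3% near zero against 35.5% of all protein-coding genes, are split between both sides.

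The urea cycle, which turns ammonia into urea, had 7 of 9 members detected. ASS1 had 239, 234 and 249.9 TPM, the mitochondrial carriers SLC25A13 and SLC25A15 averaged 140.1 and 38.8 TPM, and CPS1, the entry enzyme, had 26.9, 30.8 and 27.8 TPM. OTC, the second enzyme, had 0.224, 0.0981 and 0.146 TPM. ARG1, the liver arginase, had 0.0741, 0 and 0 TPM, and ARG2, the arginase of mitochondria, had 35.1, 40.1 and 34.8 TPM. The log2 ratio of ARG2 over ARG1 was 5.07, 5.36 and 5.16. Amino acid breakdown was detected in 22 of 26 cases, led by HPD (791, 757 and 774 TPM) of tyrosine breakdown, GLUD1 (568 TPM on average), ALDH4A1 (444) and GOT1 (413). TDO2 and KMO of tryptophan breakdown and SDS, serine dehydratase, were listed at 0 in each library.

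Drug metabolism had 45 of 75 members detected and 25 near zero, 16 of them listed at 0 in every library. The near-zero share was 33.3%, against 35.5% of all protein-coding genes. The median was 3.08 TPM. Of the cytochromes P450 and their partners, POR, the electron donor of these enzymes, had 229, 188 and 225 TPM, CYP2W1, known from colon tumours and fetal gut, 188, 134 and 182 TPM, CYB5A 34.1 TPM on average and CYP4F3 16.7 TPM. CYP3A7, the fetal liver form, had 1.58, 2.25 and 1.87 TPM, against 0, 0.0543 and 0.108 TPM for CYP3A4, the main drug-oxidising form of the adult liver. Their neighbour CYP3A5 averaged 5.41 TPM. CYP2E1 (0.0171, 0.0188 and 0 TPM), CYP1A2 (0, 0.173 and 0 TPM), CYP2R1 (0, 0.0401 and 0.119 TPM), CYP4A11 (0, 0 and 0.0920 TPM) and CYP2C18 (0.0712, 0 and 0 TPM) were near zero. CYP2C19, CYP2A6 and CYP1B1 were listed at 0 in each library, and CYP2C8, of the same cluster on chromosome 10, averaged 0.567 TPM.

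Conjugating and other oxidising enzymes showed both extremes. NQO1, a quinone reductase, had 1296, 1283 and 1283 TPM, ALDH1A1 621, 647 and 614 TPM and ALDH1B1 327, 325 and 334 TPM, both aldehyde dehydrogenases. AKR1C3 and AKR1C1, aldo-keto reductases side by side on chromosome 10, averaged 275 and 269.5 TPM, and AKR1C4 of that cluster averaged 0.151 TPM. GSTO1 had 364, 349 and 338 TPM, SULT2A1, a sulfotransferase for steroids, 323, 319.7 and 311 TPM and UGT2B7 91.9, 101 and 92.5 TPM. UGT1A6 averaged 0.0658 TPM, and UGT1A3, UGT1A4, UGT1A9, UGT2B15, UGT2B17, SULT1A1, GSTM1, NNMT and XDH were listed at 0 in each library. The UGT1A, UGT2B and SULT1A1 genes have close relatives, so their split is uncertain, and GSTM1 and UGT2B17 are known to be deleted in many people. Of the 12 sorted libraries, GSTM1 was above 0 in 8 and UGT2B17 in 3, with at most 8 and 6 reads. A deletion in these cells was not tested. GSTP1, a glutathione transferase that the adult liver keeps low, had 0.0933, 0 and 0 TPM, against 11.6, 13.7 and 14.9 TPM for GSTA1, the liver form.

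The alcohol dehydrogenases, in a row on chromosome 4, differed in level from gene to gene. ADH5 had 164, 166 and 166 TPM, ADH4 15.4, 15.7 and 14.4 TPM and ADH6 87.99, 86.6 and 84.4 TPM, while ADH1A, ADH1C and ADH7 were listed at 0 in each library and ADH1B had 0.0308, 0.0338 and 0 TPM. ADH5 is the member found in all tissues, and the class I enzymes ADH1A, ADH1B and ADH1C are the main alcohol-oxidising enzymes of the adult liver.

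**Figure D3:**
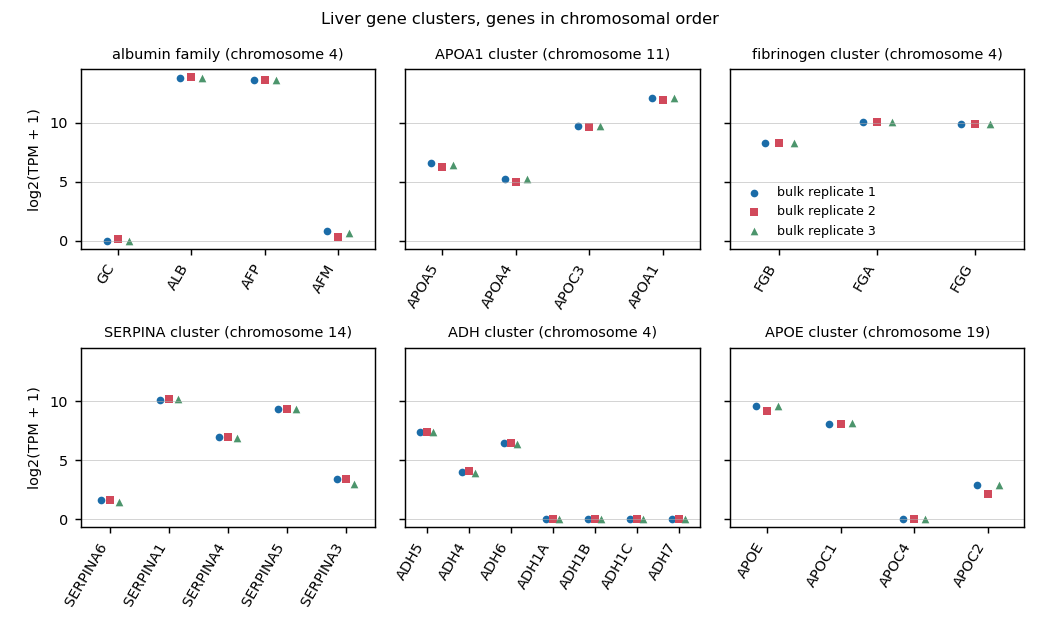
log2(TPM + 1) in each of the 3 bulk libraries (symbols) for neighbouring genes of 6 liver gene clusters, in chromosomal order from left to right and not to scale. The APOA1 and fibrinogen clusters are detected throughout, the albumin and alcohol dehydrogenase clusters hold both abundant and near-zero genes, and APOC4 beside APOE is listed at 0.

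Bile acid genes differed widely in level. CYP7A1, the rate-limiting enzyme of bile acid synthesis, had 0.400, 0.251 and 0.249 TPM, while CYP27A1, the entry enzyme of the alternative route, had 342, 334 and 357 TPM. HSD3B7 averaged 80.7 TPM, SLC27A2 51.0 TPM and AKR1D1 23.4 TPM. The asialoglycoprotein receptor genes ASGR2 and ASGR1 had 672, 663 and 693 TPM and 455, 395 and 449 TPM. ABCC2, which exports conjugates into bile, had 523, 549.7 and 507 TPM and ABCB1, a drug exporter, averaged 120.2 TPM. SLC10A1, the main bile acid importer, had 0, 0.0901 and 0.0893 TPM, and SLCO1B1, SLCO1B3, ABCB11, the bile salt export pump, and AQP9 were listed at 0 in each library.

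Sugar metabolism was detected in 17 of 24 cases. PC and GPD1 averaged 52.4 and 50.2 TPM, G6PC1, which releases glucose from the liver, had 2.53, 2.94 and 3.03 TPM, and SLC37A4, its transporter partner, was listed at 0 in each library. IGFBP1, a secreted binder of insulin-like growth factors, had 321, 310.4 and 305 TPM, PYGL, which breaks down glycogen, 141, 152 and 143 TPM, KHK, fructokinase, 108 TPM on average and UGP2 95.1 TPM. PPP1R3B (0.0287, 0.0629 and 0 TPM) was near zero. Lipid metabolism was detected in 43 of 49 cases, led by SCD, the desaturase of stearate, with 1501, 1579 and 1522 TPM, FABP1, the fatty acid carrier of liver, with 451, 441 and 445 TPM and HADHA of fatty acid oxidation with 402, 414 and 401 TPM. PLIN2 (404 TPM on average), ACADVL (246), FASN (277), GPAM (279), ACLY (203), FDPS (140.5) and SQLE (140.2) followed. ME1 and INSIG1 were listed at 0 in each library, and NSDHL averaged 0.0275 TPM. Over the liver lists without lipid metabolism, 240 of 328 genes, or 73.2%, were detected, against 56.0% of all protein-coding genes. Their median was 16.7 TPM, and their summed TPM was 10.97% ± 0.0733 of the total. Lipid genes are likewise left out of the liver lists below.

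Within 24 gene families, a gene taken as fetal, tumour or general in type was set against a relative inside each library. In 21 families the relative was taken as a gene of the adult liver. These types were assigned when the pairs were set up and were not tested, and the counts rest on them. In those 21 families the fetal, tumour or general gene was at least 2-fold higher on the TPM + 1 scale in all libraries in 11 and the adult liver gene in 4, and 6 showed neither. PKM, the pyruvate kinase of most dividing cells, had 361, 361 and 365 TPM, against 0.0519, 0 and 0 TPM for the liver form PKLR. The log2 ratio of this pair was 8.43 to 8.52. IGF2, the fetal growth factor, had 927, 857 and 951 TPM, against 0, 0 and 0.0441 TPM for IGF1, the growth factor that adult liver secretes. ACSL4 had 169.6, 173 and 159 TPM, against 7.51, 8.16 and 7.61 TPM for ACSL1, both of which activate fatty acids.

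G6PC3 had 31.9, 29.7 and 30.7 TPM, against 2.53, 2.94 and 3.03 TPM for G6PC1, and GYS1 averaged 18.7 TPM, against GYS2 listed at 0 in each library. In the other 3 families the relative is not a gene of the adult liver, and the first gene was the higher in each. BCAT1 had 43.3, 47.5 and 42.4 TPM, against 3.11, 1.78 and 2.36 TPM for BCAT2, the mitochondrial form, both of which act on branched-chain amino acids. CDKN1A averaged 147 TPM, against CDKN1C, an imprinted inhibitor, listed at 0, and EEF1A1 stood against 0.545, 0.337 and 0.407 TPM for EEF1A2, a form of muscle and brain. The gene taken as that of the adult liver was the higher in 4 families, a count that rests on this assignment, as for ACACB. CPT1C had 0.0281, 0 and 0.0915 TPM, against 46.6, 48.4 and 48.0 TPM for CPT1A, the carnitine palmitoyltransferase of liver. ACACA had 1.34, 0.998 and 0.865 TPM, against 13.6, 12.8 and 12.2 TPM for ACACB, and GSTP1 also stood below its relative. The 6 families with neither were AFP with ALB, ADH1A with ADH1B, MAT2A (263 TPM on average) with MAT1A (376 TPM), PYGB (113 TPM) with PYGL (145 TPM), SLC2A1 (126 TPM) with SLC2A2 (71.2 TPM), and PCK2 (1.22, 1.08 and 2.95 TPM) with PCK1 (2.36, 2.17 and 1.68 TPM). For PCK2 over PCK1 the direction differed between libraries. The size of a ratio against a gene near 0 rests on the pseudocount. No test was made, because with 3 libraries a 2-sided exact sign-flip permutation test cannot go below p = 0.25.

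**Figure D4:**
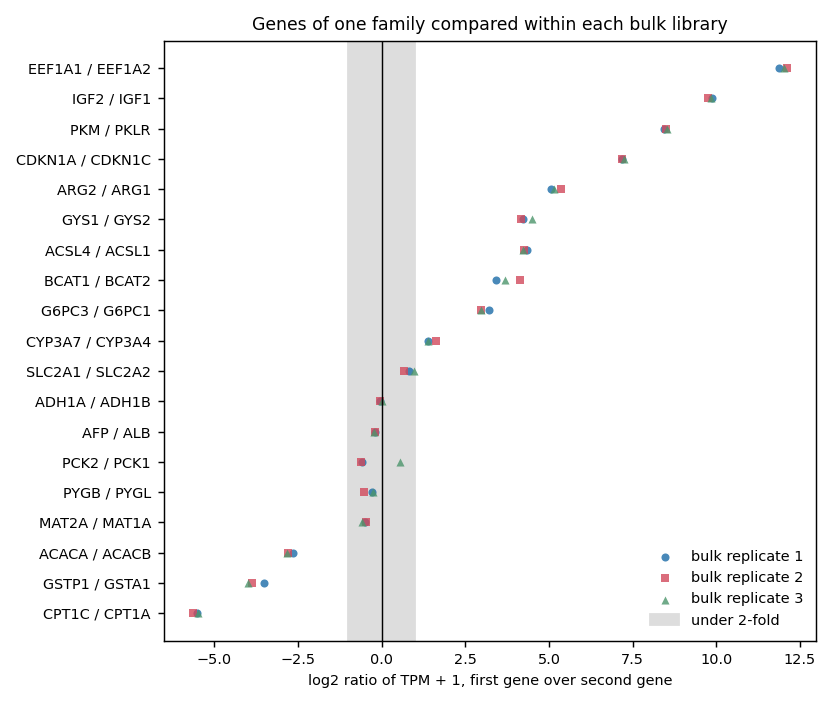
log2 ratio of TPM + 1 of a fetal, tumour or general gene over a relative in each of the 3 bulk libraries (symbols), for 19 of the 24 families sorted by mean, with the band under 2-fold in grey. The relative was taken as a gene of the adult liver except for EEF1A2, CDKN1C and BCAT2. EEF1A1 over EEF1A2, IGF2 over IGF1 and PKM over PKLR lie farthest to the right, CPT1C over CPT1A and GSTP1 over GSTA1 farthest to the left, and PCK2 over PCK1 changes side in replicate 3.

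The oncofetal list joins markers of fetal liver and liver tumours with RNA-binding and stem cell factors. Its genes were detected in 24 of 36 cases, or 66.7%, against 56.0% of all protein-coding genes. Of the markers 12 of 15 were detected, and of the factors 12 of 21. In the whole list 16 genes were at 100 TPM or more, and the median was 66.6 TPM. After AFP and GPC3 came PEG10, an imprinted gene of retrotransposon origin, with 1538, 1632 and 1550.3 TPM, IGF2, and HMGA1, a chromatin protein of embryonic cells, with 827, 778 and 879 TPM. PEG3, also imprinted, had 679, 718 and 665 TPM, and EPCAM, an adhesion protein of progenitor cells, 368, 375 and 354 TPM. SOX9 had 308, 289.8 and 305 TPM and IGF2BP1, an RNA-binding protein of the embryo, 229.7, 239 and 237 TPM. LIN28B, which blocks the let-7 miRNAs, averaged 90.4 TPM, while its relative LIN28A had 0, 0.0908 and 0.0450 TPM. H19, the noncoding neighbour of IGF2, CD44, THY1, SOX2 and REG3A were listed at 0 in each library, and GOLM1, the gene of a serum marker of liver tumours, averaged 0.466 TPM.

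Beta-catenin targets were detected in 20 of 23 cases, with 12 at 100 TPM or more and a median of 103 TPM. HepG2 is known to carry a deletion in CTNNB1 that keeps beta-catenin from being destroyed. CTNNB1 itself had 179.8, 189 and 185 TPM. NOTUM, a secreted enzyme that inactivates Wnt proteins, had 367, 248 and 360.1 TPM, lowest in replicate 2. CCND1 had 293, 294 and 284 TPM, BMP4 243, 237 and 248 TPM and GLUL, the glutamine synthetase of hepatocytes around the central vein, 188, 191 and 193 TPM. NKD1 averaged 181 TPM, LGR5 181 TPM, SP5 147 TPM and AXIN2 55.7 TPM, which are all feedback or stem cell targets of the pathway. The 3 targets near zero were LECT2 (0.0772, 0.169 and 0 TPM), CYP1A2 and CYP2E1, all genes of mature liver. Of the pathway itself LRP5 averaged 153 TPM, AXIN1 28.5 TPM and TCF7L2 30.7 TPM, while LRP6 averaged 0.0111 TPM.

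Growth signals and tumour suppressors were detected in 32 of 35 cases. FGFR4, the receptor for FGF19 in liver, had 482, 388 and 479 TPM, ERBB3 373, 387 and 368 TPM, FGFR3 216 TPM on average and MYC 182, 167 and 182 TPM. NRAS, a gene known to carry an activating change in HepG2, averaged 127 TPM. RPS6KA3 (406 TPM), KEAP1 (87.4) and BAP1 (82.8) led the tumour suppressor list. NFE2L2, the gene of NRF2, averaged 65.6 TPM. Of 22 cancer-testis antigens, germ-line genes that many tumours switch on, only PAGE1 was detected, at 3.49, 1.92 and 4.61 TPM, and 19, MAGEA4 among them, were listed at 0 in each library. ACTL8 averaged 0.530 TPM and PAGE2 0.0842 TPM. TERT, the catalytic part of telomerase, had 5.50, 4.36 and 4.86 TPM. DKC1 (66.1 TPM on average), TERF2 (31.7), ATRX (23.1) and POT1 (9.07) of telomere maintenance were also detected.

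Of the proliferation genes, 51 of 52 replication genes and 52 of 55 mitosis genes were detected, with medians of 43.6 and 64.4 TPM. PCNA, the clamp that holds DNA polymerase on its template, had 1006, 1005 and 974 TPM. MCM3, part of the replicative helicase, had 424, 421 and 422 TPM, and MCM7, MCM2 and GMNN, an inhibitor of re-replication, averaged 171, 120.3 and 106 TPM. TYMS and TK1 of nucleotide supply averaged 254 and 140.2 TPM, and FEN1 129 TPM. CDK4 had 354, 353 and 374 TPM, CDK6 155, 164 and 147 TPM and E2F1 68.0 TPM on average. CKS2, a partner of cyclin-dependent kinases, had 588, 569 and 598 TPM, CCNB1 232, 238 and 227 TPM, AURKA 211, 213 and 202 TPM and MYBL2 187, 187 and 203 TPM. TPX2, a spindle assembly factor, had 280.0, 286 and 279 TPM, TOP2A, which untangles DNA, 242, 249.5 and 230.0 TPM, NCAPD2 of condensin 182 TPM on average, and MKI67, the proliferation antigen, 137, 149.7 and 138 TPM. E2F2 was listed at 0 in each library, and PRC1 (0.209, 0.261 and 0.227 TPM), NUSAP1 (0.182, 0.200 and 0.0496 TPM) and KIFC1 (0.0543, 0.238 and 0.118 TPM), all mitotic spindle proteins, stood below 1 TPM. Of 12 cell cycle inhibitors 11 were detected, led by CDKN1A (145, 145 and 151 TPM), RBL2 (59.0 TPM on average), BTG1 (47.1) and RB1 (36.4).

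Housekeeping and stress genes were abundant as groups. The translation machinery held 8.95% ± 0.159 of TPM, with 85 of 92 members detected and a median of 660.4 TPM. RACK1 and NPM1 averaged 1549.5 and 1007 TPM. Of the glycolytic genes 19 of 23 were detected, with ENO1 at 1930.0, 1926 and 1956 TPM, HK2 at 152, 151 and 155 TPM and TPI1 at 697 TPM on average. HSPA8, HSPD1 and ATF4 averaged 1691, 1372 and 1233 TPM. NRF2 targets, the genes of defence against oxidants, were detected in 13 of 15 cases, with GPX2 at 1161, 1149 and 1176 TPM and PGD at 729, 745 and 754 TPM beside NQO1. Metallothioneins were lower, with MT2A at 118, 94.2 and 86.5 TPM and MT1E at 46.1 TPM on average, and MT1G and MT1F at 28.4 and 11.5 TPM. Among nuclear noncoding RNAs, GAS5 averaged 138 TPM, SNHG1 117 TPM, MALAT1 26.2 TPM and NEAT1 17.3 TPM.

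Markers of other cell types were mostly near zero except for those of cholangiocytes. Near zero were 66.7% of endothelial, 58.3% of stellate cell and fibroblast, 58.3% of Kupffer cell and leukocyte and 70% of red cell markers. Cholangiocyte markers were near zero in 33.3% of cases, against 35.5% of all protein-coding genes. None of 12 endothelial markers reached 1 TPM, with CDH5 at 0.109, 0.390 and 0.535 TPM the highest on average, and VWF, STAB1 and LYVE1 averaging 0.295, 0.292 and 0.168 TPM. Of 12 stellate cell and fibroblast markers 3 were detected, ACTA2 (41.9, 41.1 and 42.1 TPM), TAGLN (11.7 TPM on average) and PDGFRB (9.99). RGS5 averaged 0.762 TPM, while COL1A2, COL3A1, DCN, LUM and POSTN were listed at 0. Of 12 leukocyte markers 4 were detected, among them CD14 (2.37 TPM), NKG7 (1.63) and LYZ, lysozyme, at 1924, 1962 and 1801 TPM, while PTPRC, which marks all leukocytes, was listed at 0. Of 10 red cell markers 1 was detected, EPOR (12.7 TPM), while the globin genes HBG2 and HBA1 averaged 0.842 and 0.357 TPM and HBA2 was listed at 0. Of 12 cholangiocyte markers 6 were detected, EPCAM, SOX9, SPP1 (251, 252 and 243 TPM), KRT19 (226, 204 and 238 TPM), CD24 (167 TPM) and GGT1 (3.81 TPM), while KRT7 averaged 0.0450 TPM and CFTR was listed at 0. Of the 12 markers that define hepatocytes 11 were detected and APOB was not.

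The near-zero liver genes must be read beside genes that every cell uses. In the liver lists 88 of 328 genes were under 1 TPM, 69 near zero, or 21.0%, and 41 at 0 in all libraries. Over all protein-coding genes, a larger share, 35.5%, was near zero, and 26.8% were at 0 in all libraries. No near-zero liver member had more than 22 reads in the 3 libraries together. Among 157 constitutive and ribosomal protein genes, a comparison list chosen after values had been seen, 5 were near zero, or 3.18%, and among 107 replication and mitosis genes 1 was, or 0.935%. RPS18 of the ribosome, PSMB3 and PSMC4 of the proteasome and EEF1G of translation were listed at 0 in each library. So were LDHB of lactate metabolism and HSPA1A, a heat shock chaperone, which are in neither the constitutive nor the translation list. CCT8, a chaperonin subunit, had 0, 0.0540 and 0 TPM, LDHA 0.655, 0.449 and 1.48 TPM and POLR2A, the large subunit of RNA polymerase II, 0.768, 0.648 and 0.578 TPM. A value of 0 in these data is therefore a listed value and does not show that a transcript was missing.

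Some of these genes have abundant pseudogene copies in the same libraries. Of 10 ribosomal protein genes under 10 TPM, 6 had pseudogenes with at least 100 TPM in sum, as did 23 of the 69 at 10 TPM or more. RPS2 had 1.79, 0.680 and 1.57 TPM and its pseudogene RPS2P5 1092, 1126 and 1118 TPM. RPL7A had 0.882, 0.806 and 0.559 TPM and RPL7AP6 640.0, 618 and 623 TPM. RPS18P5 had 213, 199.7 and 197 TPM and CCT8P1 44.7, 40.8 and 37.0 TPM. For PSMB3 and LDHB the pseudogenes were listed at 0, and PSMC4 and POLR2A had none in the tables used. The sources used here do not say how reads with several possible origins were assigned, and the part of that step in these values was not tested.

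Low liver genes were also set beside the sorted libraries, with TPM rescaled over protein-coding genes. The kit differed between bulk and sorted cells (a stranded mRNA kit and a low-input total RNA kit), so kit and sorting cannot be told apart and no test was made. PLG had 0.0950, 0.0263 and 0.0259 rescaled TPM in bulk, from 4, 1 and 1 reads, against 223 to 278 in the 6 sorted libraries of replicate 2 and 16.5 to 37.4 in those of replicate 3. The ranges of bulk and sorted libraries were far apart, and so were those of the sorted replicates. ARG1 had 0.0956, 0 and 0 in bulk, against 28.5 to 46.6 in sorted replicate 2 and 4.61 to 11.4 in sorted replicate 3. CYP7A1 had 0.516, 0.327 and 0.322 in bulk, against 10.8 to 28.5 over all 12 sorted libraries. CYP2J2, NR1I3, BAAT and SAA4 were the other genes under 1 TPM in bulk with a sorted median of 5 or more, which makes 7 of 88. Among constitutive and cell cycle genes under 1 TPM in bulk, 6 of 16 had such a sorted median. The share over all protein-coding genes under 1 TPM in bulk was not taken, so neither count can be called unusual. APOB had 0.129, 0.159 and 0.0469 in bulk and 0.374 to 2.36 in sorted libraries, and stayed low in both. SAA1, TDO2 and SULT1A1 were listed at 0 in all 15 RNA libraries.

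**Figure D5:**
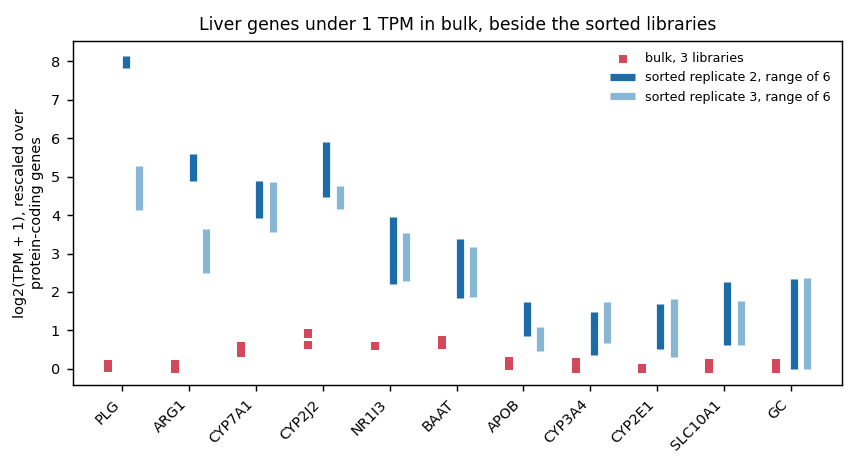
log2(TPM + 1), rescaled over protein-coding genes, of 11 liver genes under 1 TPM in bulk, with the 3 bulk libraries as squares and the range of the 6 sorted libraries of each replicate as bars. PLG in sorted replicate 2, at 223 to 278 rescaled TPM, lies farthest from bulk, and PLG and ARG1 differ between the sorted replicates with no overlap.

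The libraries were close for most genes. Among protein-coding genes with a mean of at least 10 TPM, the 95th percentile of the SD of log2(TPM + 1) was 0.191. The most variable of these was PSME1, a proteasome activator subunit, with 1.20, 1.02 and 42.4 TPM from 13, 10 and 421 reads. CD99, on the shared part of the sex chromosomes, had 20.7, 19.9 and 1.58 TPM, LSM14A 16.7, 35.8 and 9.85 TPM, PLCXD1 6.75, 18.4 and 5.75 TPM and SCAND1 34.7, 14.6 and 32.1 TPM. The library that stood apart was replicate 3 for PSME1 and CD99 and replicate 2 for LSM14A, PLCXD1 and SCAND1.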

How the data were processed

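RNA was measured in 3 bulk HepG2 libraries, and 12 sorted libraries served only for gene lengths and for values set side by side. The deposited files hold log2 values that the authors made, 1 for each of 78932 gene identifiers. They were read as log2(TPM + 1), since back-transformed values summed to 1000000 in each library. Tools in the submitters' processing notes are BWA, HISAT2, SAMtools, Trimmomatic and cutadapt, listed without roles, and the build is hg38. The sources used here do not give the counter, its annotation or its use of strand.

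Since each gene's TPM climbs in equal steps per added read, reads and gene lengths could be recovered, for 50308 of the 50310 genes with values above 0 in 3 or more RNA libraries. Of the lengths found from steps alone, 99.5% were whole within 0.01 base. A step may stand for a single read or for a pair. Reads show counting error only. The recovery was checked on simulated data. Levels rest on these gene-model lengths, such as 10063 bases for EEF1A1.

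Symbols were matched for 61481 identifiers, and positions come from a RefSeq table (GRCh38.p14). Detected means a mean of at least 1 TPM, near zero under 0.1 TPM and high at least 100 TPM. Ratios of genes used a pseudocount of 1 TPM. The gene lists share members, and members and lists were chosen with earlier results of these data known. The named genes are the 25 most abundant protein-coding and 5 most abundant other nuclear genes, the first 4 of each role in each list, near-zero liver genes, both genes of each pair, 10 chosen markers and the 5 most variable genes. Some genes that this rule names are not reported here. Further genes were named after their values were seen. No test across groups was made. Alternatives changed the threshold, the scaling, the pseudocount, the division by length and the libraries. Python 3.11.15, NumPy 2.4.6, pandas 2.3.3 and Matplotlib 3.10.9 were used.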

Additional observations from a re-analysis of the deposited data

How the results depend on the processing

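The 100 most abundant genes of all kinds held 39.1% of TPM, 27.9% after rescaling without mitochondrial genes, 29.3% over protein-coding genes alone and 25.04% of recovered reads. The liver lists held 10.97% of TPM, 13.3% without mitochondrial genes and 14.2% over protein-coding genes. Both rescalings raise or lower shares by construction. The number of genes of all kinds that were detected was 14141, and 10176 to 16232 under other thresholds and scalings. List members detected numbered 657 of 863, and 596 to 671 under other settings. Of all 24 families, the fetal, tumour or general gene was at least 2-fold higher in 14, and in 15 when reads were not divided by length. No ratio of a size above its SD over the libraries changed sign. A change of sign was not counted for smaller ratios, such as PCK2 over PCK1. The size of 18 of 24 ratios moved by more than 1 SD with a pseudocount of 0.1. That of 23 did so when reads were not divided by length. Without 1 library in turn, the first share ran from 39.0% to 39.3%, the liver share from 10.94% to 11.01% and the detected genes from 14118 to 14192. No paired analysis was possible because the bulk libraries form a single group and no test was made. Ratios of genes were taken within each library. Depth limits low genes, where 1 read decides a value.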
